A study of Mus musculus with 6 samples.

Results

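The mature arms mmu-miR-423-5p and mmu-miR-423-3p, mmu-miR-574-5p and mmu-miR-574-3p, and mmu-miR-151-5p and mmu-miR-151-3p, the strand pairs of 3 hairpins, were followed in exosomes, the small vesicles that cells release, from the supernatant of cultured bone marrow-derived macrophages. These 6 arms, of 707 mature microRNAs (miRNAs) listed in the count table, were selected on their read counts over all libraries, both strands of each hairpin being well counted. Of 198 hairpins with both arms listed, miR-151 ranked 6, miR-423 ranked 7 and miR-574 ranked 10 by the total count of the smaller arm, with 793, 778 and 522 counts over all libraries. The deeper san:san libraries supplied most of those counts, so the choice leaned towards arms well represented there. Macrophages carried the Roquin-1 san:san genotype in 3 samples and were wild type (WT) in 3 samples, all on the C57BL/6 strain. The san (sanroque) allele alters Roquin-1, which binds stem-loops in messenger RNAs and speeds their decay. The labels give neither age nor the mouse or culture behind each replicate. The p-values thus measure the spread among these libraries, which for the arm ratios was pooled over hairpins, and that spread may be technical.

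A miRNA hairpin is cut by Drosha and then Dicer into a duplex of its 5p and 3p strands. One strand is usually retained by an Argonaute protein as the guide, and the other, the passenger, is usually degraded. Both strands come from the same transcript. Their reads are counted in the same library, so their ratio does not depend on how libraries are scaled to each other. Adapter ligation can still capture the strands unequally. The seed, bases 2 to 8 of a mature strand, is the main determinant of its targets, so the strands of a hairpin have different targets.

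The mature sequences of the arms matched in RefSeq (build GRCm38.p6) are shown because the strands of a hairpin differ in seed and in first base. They are written 5′ to 3′ with the seed in capitals.
miR-423-5p: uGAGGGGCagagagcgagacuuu
miR-423-3p: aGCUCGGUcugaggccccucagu
miR-574-5p: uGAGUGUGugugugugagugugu
miR-574-3p: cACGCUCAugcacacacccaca
RefSeq sequences were matched for 4 of the 6 arms, those of miR-423 and miR-574. The miR-574 strands had the most lopsided composition. G and U made up 91.3% of the bases of miR-574-5p, against 60.9% in miR-423-5p, and A and C made up 81.8% of miR-574-3p, against 47.8% in miR-423-3p. In the hairpin fold predicted by RNAfold, 19 of the 23 bases were paired in each miR-423 arm, 20 of 23 in miR-574-5p and all 22 in miR-574-3p.

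The 4 seeds differed from each other, and no other name among the 573 in the table with a RefSeq mature sequence shared one of them. No such name shared a run of 12 or more bases with these 4 arms. The longest run for the repeat-rich miR-574-5p was 11 bases, with miR-1187, which had 1 count over all 6 libraries. For miR-423-3p it was 10 bases, with miR-25-3p, and for the other arms it was 9 or fewer. No other row of the table with at least 10 counts had the same counts as any of the 6 arms. Names without a RefSeq sequence were not compared.

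All 3 hairpins lie in introns of protein-coding genes in the GENCODE annotation of GRCm38. The arms of miR-423 and miR-574 are on the same strand as those genes, and the strand of Mir151 was not compared. Mir423 (chromosome 11, 77078064 to 77078172) is in Nsrp1, which encodes a nuclear speckle splicing regulator. Mir574 (chromosome 5, 64970318 to 64970395) is in Fam114a1. Mir151 (chromosome 15, 73254815 to 73254882) is in Ptk2, which encodes focal adhesion kinase, and an annotated antisense gene, 1700085D07Rik, also spans it.

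The san:san libraries held 185901, 160588 and 126098 miRNA counts, and the WT libraries held 12447, 28884 and 21754, so depth and genotype cannot be told apart. Together the 6 arms made up between 3.44% and 3.54% of the counts in san:san libraries and between 3.33% and 3.95% in WT libraries, ranges that overlap. Macrophage and myeloid miRNAs, with all 8 listed, made up 9.68% to 11.2% of san:san counts and 5.14% to 6.03% of WT counts. Of the 6 tested among them 5 were higher in san:san. Among all 254 tested miRNAs 34.6% were called higher and 29.5% lower, and the marker counts here are to be read against those shares. Erythroid miRNAs also moved with genotype, at 15.6% to 17.9% in san:san against 3.84% to 6.25% in WT, with 4 of 5 names higher. miR-486a-5p and miR-486b-5p have identical counts, and with that pair counted once the shares were 10.3% to 11.9% in san:san and 2.68% to 4.59% in WT, with 3 of 4 higher. The lymphocyte marker miR-150-5p was at 1.38% to 1.92% in san:san against 0.409% to 0.492% in WT and was higher. Both endothelial markers were higher, and their summed share was 3.37% to 6.96% in san:san against 1.82% to 3.69% in WT, with overlap. Stromal markers were at 0.741% to 0.833% in san:san against 0.844% to 1.32% in WT, with 1 of 5 higher and 1 lower, and the liver marker miR-122-5p was at 0.420% to 0.580% against 0.501% to 0.699% and did not pass. The 4 epithelial markers were between 0.00538% and 0.0103% in san:san and at 0 in WT. None of them was tested, and in the shallower WT libraries such a share would amount to a few counts at most. The part of these cell types in the results on the 6 arms was not tested.

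The arms of each hairpin differed in how far they moved between genotypes. In counts scaled by TMM (a trimmed mean over miRNAs that sets the libraries on 1 scale) and given as CPM (counts relative to a fixed library total), miR-574-3p and miR-151-5p were more than 3-fold higher in san:san exosomes and miR-423-3p was 2.32-fold higher. miR-151-3p was 1.66-fold higher, a call that depended on the scaling. miR-423-5p and miR-574-5p did not pass the test. In pooled vesicles, fewer vesicles from 1 kind of cell and less of a miRNA per vesicle cannot be told apart. In the quasi-likelihood test of edgeR, with 0.05 as the limit on the adjusted p, 4 of the 6 arms were higher, 0 were lower and 2 did not pass. Over all 254 miRNAs tested 64.2% were called, 34.6% as higher in san:san and 29.5% as lower. The median log2 fold change was 0.97 over the 6 arms and 0.30 over all tested miRNAs.

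**Figure D1:**
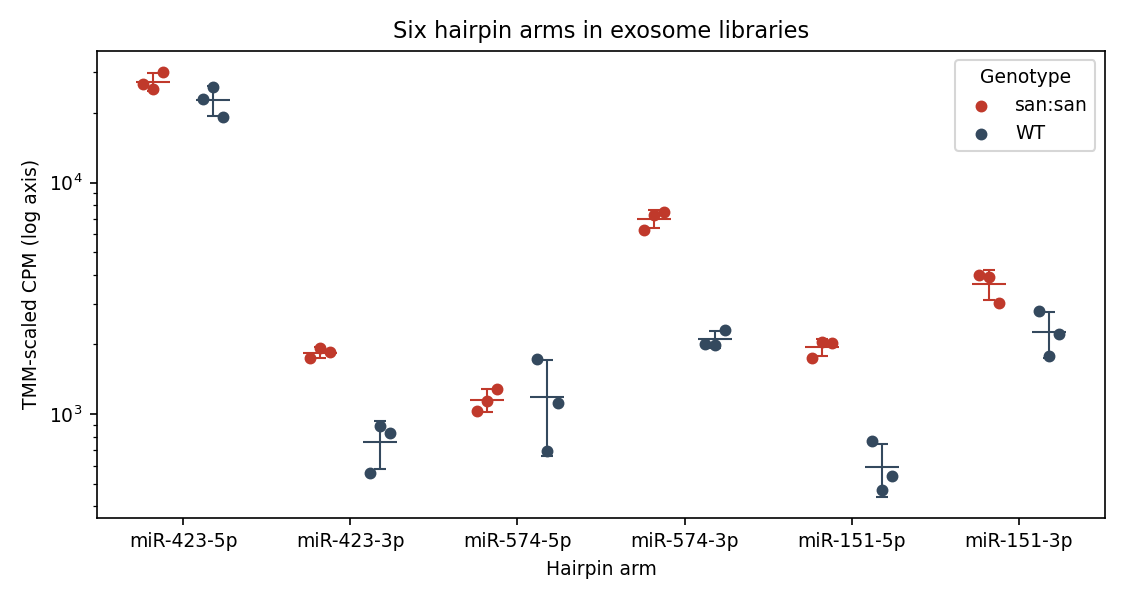
TMM-scaled CPM (counts relative to a fixed library total, log axis) of the 6 arms, with 1 point per library and a bar at the mean with its SD (n = 3 per genotype), san:san left of WT. The genotypes are separated for miR-423-3p, miR-574-3p and both miR-151 arms and overlap for miR-423-5p and miR-574-5p.

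miR-423-5p, a strand known as an abundant circulating miRNA in human plasma, was by far the most abundant of the arms. It had 4223, 3358 and 2935 counts in san:san and 331, 932 and 531 in WT, equal to 26629, 25263 and 30063 CPM in san:san and 23018, 25865 and 19233 CPM in WT. The genotypes overlapped, because WT replicate 2 was above san:san replicate 2. The arm ranked 11 of the 254 tested miRNAs by mean CPM. Its mean was 27318 ± 2473 CPM in san:san and 22705 ± 3327 CPM in WT (SD, n = 3 each, as for all CPM means here), a log2 fold change of 0.27 with a 95% interval of -0.16 to 0.69 (edgeR adjusted p = 0.245).

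miR-423-3p, the less frequent strand of that hairpin, had 276, 257 and 182 counts in san:san and 8, 32 and 23 in WT. On the CPM scale it was at 1740, 1934 and 1864 in san:san and at 556, 888 and 833 in WT. Every san:san library was therefore above every WT library, and the lowest value belonged to WT replicate 1, the shallowest library, where it rests on 8 counts. Among all tested miRNAs 70.9% had no overlap between genotypes, and 39.8% none with san:san higher. The means of 1846 ± 97.8 CPM in san:san and 759 ± 178 CPM in WT gave a log2 fold change of 1.22 ± 0.24 (SE, edgeR adjusted p = 5.17e-04). The call ended in libraries thinned to the smallest total (log2 0.036, adjusted p = 0.945 in 1 edgeR fit), and 14 of 20 further thinned draws passed.

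miR-574-5p, whose GU-rich strand is known in human cells to bind the RNA-binding protein CUGBP1 as a decoy, had 164, 151 and 126 counts in san:san and 25, 25 and 31 in WT. Its CPM values were 1034, 1136 and 1291 in san:san and 1739, 694 and 1123 in WT. The WT libraries spanned the whole san:san range, with WT replicate 1 the highest of all libraries and WT replicate 2 the lowest. The means were 1154 ± 129 CPM in san:san and 1185 ± 525 CPM in WT, and the log2 fold change of 0.07 had a 95% interval of -0.55 to 0.70 (edgeR adjusted p = 0.829). Its sign changed with the scaling.

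miR-574-3p, which in human myeloid cells is known to interact with the RNA-binding protein hnRNP L, had 991, 963 and 729 counts in san:san and 29, 72 and 64 in WT. It stood at 6249, 7245 and 7467 CPM in san:san and at 2017, 1998 and 2318 CPM in WT. The lowest san:san library was well above the highest WT library. With means of 6987 ± 649 CPM in san:san and 2111 ± 179.6 CPM in WT it was 3.30-fold higher (log2 1.72 ± 0.20, SE, edgeR adjusted p = 5.98e-06).

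miR-151-5p, known in human liver cancer cells to promote migration together with the host gene's kinase, had 278, 273 and 199 counts in san:san and 11, 17 and 15 in WT. Its values were 1753, 2054 and 2038 CPM in san:san and 765, 472 and 543 CPM in WT, with no overlap. The WT values rest on fewer than 20 counts per library. The arm averaged 1948 ± 169 CPM in san:san and 593 ± 153 CPM in WT, 3.46-fold higher in san:san (log2 1.79 ± 0.26, SE, edgeR adjusted p = 4.02e-05).

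miR-151-3p, the more frequent strand of the miR-151 hairpin in all 6 libraries, had 631, 522 and 295 counts in san:san and 40, 64 and 61 in WT. On the CPM scale it was at 3979, 3927 and 3022 in san:san and at 2782, 1776 and 2209 in WT. The genotypes did not overlap, but san:san replicate 3 lay close to WT replicate 1. The means were 3643 ± 538 CPM in san:san and 2256 ± 504 CPM in WT, with a log2 fold change of 0.73 ± 0.22 (SE, edgeR adjusted p = 0.0110). The call ended under DESeq2 (adjusted p = 0.114), RLE factors (0.0861) and total counts (0.583). It also ended without WT replicate 2 (log2 0.48, 0.161) and without san:san replicate 1 (0.65, 0.0504). In thinned libraries it was at 0.23 (0.554), and 0 of 20 further draws passed.

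Choice of scaling moved the whole distribution. The median log2 fold change of all tested miRNAs was 0.30 with TMM and 0.20 with TMMwsp. It was 0.02 with DESeq2, 0.04 under RLE factors and -0.29 when only total counts were used. With total counts, higher and lower calls over all miRNAs numbered 49 and 101, against 88 and 75 with TMM. With DESeq2 they numbered 64 and 82. A scaling shifts all miRNAs by nearly the same amount, so distances from its own median are fixed by construction and show only where the arms lay among the others. miR-151-5p was 1.50 above the median with TMM and 1.49 above with total counts on the log2 scale, miR-574-3p 1.43 and 1.42, miR-423-3p 0.92 and 0.91, and miR-151-3p 0.44 and 0.45. miR-423-5p stood at -0.03 from the median under both, and miR-574-5p at -0.22 under both. The log2 fold change of miR-423-5p turned to -0.32 with total counts (edgeR adjusted p = 0.150), and that of miR-574-5p to -0.51 (0.129).

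**Figure D2:**
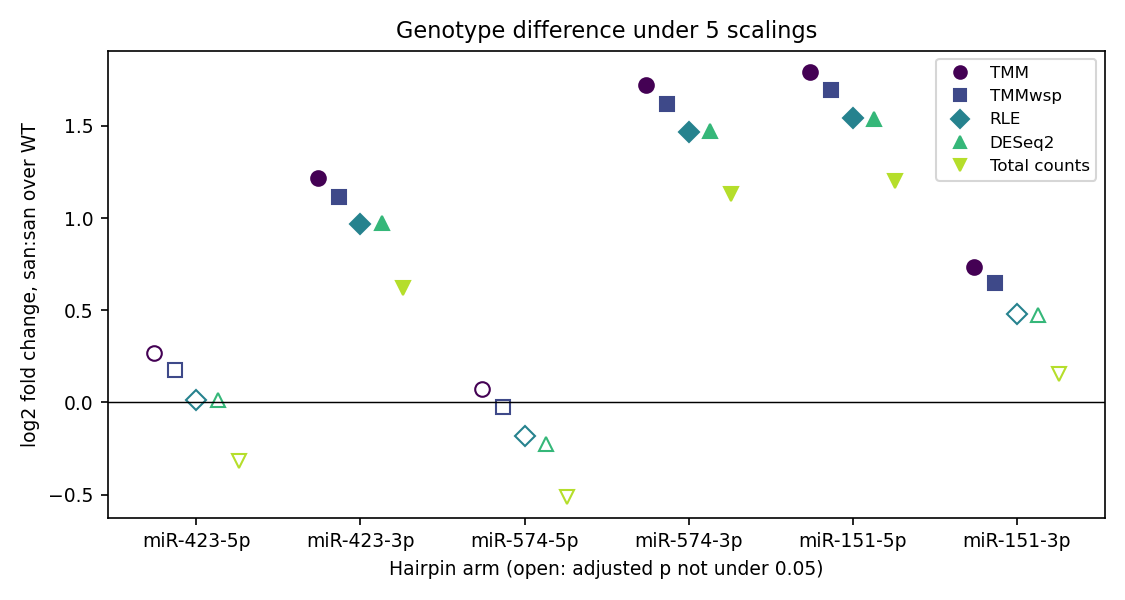
Log2 fold change (san:san over WT) of the 6 arms under DESeq2, TMM, TMMwsp, RLE factors and total counts. Filled symbols have an adjusted p under 0.05. miR-423-3p, miR-574-3p and miR-151-5p were called under all of these, and miR-151-3p with TMM and TMMwsp only.

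CPM was set side by side between arms without a correction for length, although ligation may capture strands unequally. The matched strands are 22 or 23 bases long, and no length was at hand for the miR-151 arms. In san:san the order was miR-423-5p, miR-574-3p, miR-151-3p, miR-151-5p, miR-423-3p and miR-574-5p. Of these neighbours, miR-151-5p and miR-423-3p overlapped in their library values and the others did not. In WT the order was miR-423-5p, miR-151-3p, miR-574-3p, miR-574-5p, miR-423-3p and miR-151-5p. There miR-151-3p overlapped with miR-574-3p, miR-574-5p with miR-423-3p, and miR-423-3p with miR-151-5p.

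The arm ratios, which need no scaling between libraries, were called different between genotypes in all 3 hairpins, and not in 1 direction. The miR-423 call ended in several fits without 1 library. In libraries thinned to the smallest total, 6 of 20 draws passed for miR-423, 10 of 20 for miR-151 and 19 of 20 for miR-574. The 5p arm lost ground to the 3p arm in miR-574 and miR-423 and gained on it in miR-151. Taken by strand frequency, the less frequent arm gained in san:san in miR-423 (3p) and miR-151 (5p) and lost in miR-574 (5p). Ratios were tested with edgeR on the counts of both arms, with a term for each library and an arm by genotype term, over 25 hairpins. For miR-423, miR-574 and miR-151 the fit used a spread pooled over hairpins, so a hairpin's own spread between libraries hardly enters its p-value. A hairpin entered if its arms summed to 20 or more counts in every library and each of its arms reached 10 counts within each genotype. Of these 25 hairpins 60.0% were called, 28.0% with a gain of the 5p arm in san:san and 32.0% with a loss, so 3 of 3 is to be read against a background in which most well-counted hairpins differed.

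miR-423 was almost entirely 5p in both genotypes. The 5p arm made up 93.9%, 92.9% and 94.2% of the hairpin's counts in san:san and 97.6%, 96.7% and 95.8% in WT. The 3p share was thus 6.13%, 7.11% and 5.84% in san:san against 2.36%, 3.32% and 4.15% in WT, with no overlap in value. The exact 95% binomial intervals of the 3p share, which cover counting error only, ran from 2.65% to 6.16% in WT replicate 3 and from 5.04% to 6.72% in san:san replicate 3, so those libraries are not separated by their counting error. The log2 ratio of 5p over 3p was lower by 0.97 ± 0.38 in san:san (SE), or a change of -0.97 with a 95% interval of -1.72 to -0.23 (edgeR adjusted p = 0.0234). The call ended without WT replicate 1 (-0.83, 0.0775), WT replicate 2 (-0.98, 0.133), san:san replicate 1 (-1.01, 0.0854) or san:san replicate 2 (-0.89, 0.127). In thinned libraries the change was 0.050 (adjusted p = 0.929), and 6 of 20 further draws passed.

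miR-574 showed the strongest shift of the 3. The 5p arm held 14.2%, 13.6% and 14.7% of the hairpin's counts in san:san, against 46.3%, 25.8% and 32.6% in WT. The san:san libraries were within their counting error of each other, and the WT libraries were spread widely, on 54, 97 and 95 counts. The 95% interval of WT replicate 2, the lowest of the WT libraries, was 17.4% to 35.7%, and that of san:san replicate 3, the highest of the san:san libraries, 12.4% to 17.3%. The ratio of 3p to 5p was 6.04, 6.38 and 5.79 in san:san, against 1.16, 2.88 and 2.06 in WT. The 5p over 3p ratio was 3.08-fold lower in san:san (log2 -1.62, 95% interval -2.37 to -0.88, edgeR adjusted p = 1.39e-04). That p-value rests on the pooled spread and hardly reflects the wide WT spread of this hairpin. In limma, an alternative test on log ratios with a scaled pseudocount, the change was -1.66 (limma adjusted p = 0.00875). With each library left out in turn the edgeR call held. The change was -1.32 without WT replicate 1 and -1.92 without WT replicate 2. At the level of arms, miR-574-3p rose while miR-574-5p did not pass the test.

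miR-151 moved the other way. The 5p arm held 30.6%, 34.3% and 40.3% of the hairpin's counts in san:san and 21.6%, 21.0% and 19.7% in WT. All WT libraries lay below all san:san libraries, and the WT shares were close to each other, although on 51, 81 and 76 counts their 95% intervals reached from 11.3% to 35.3%. Within san:san the spread exceeded counting error, because the interval of replicate 1 was 27.6% to 33.7% and that of replicate 3 was 35.9% to 44.8%. The 5p over 3p ratio was 2.05-fold higher in san:san (log2 1.03, 95% interval 0.40 to 1.67, edgeR adjusted p = 0.00436). The call held with each library left out in turn, with changes between 0.88 and 1.18. It ended in libraries thinned to the smallest total (1.36, adjusted p = 0.194 in 1 edgeR fit), and 10 of 20 further thinned draws passed. The interval of this change did not overlap those of miR-423 and miR-574.

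**Figure D3:**
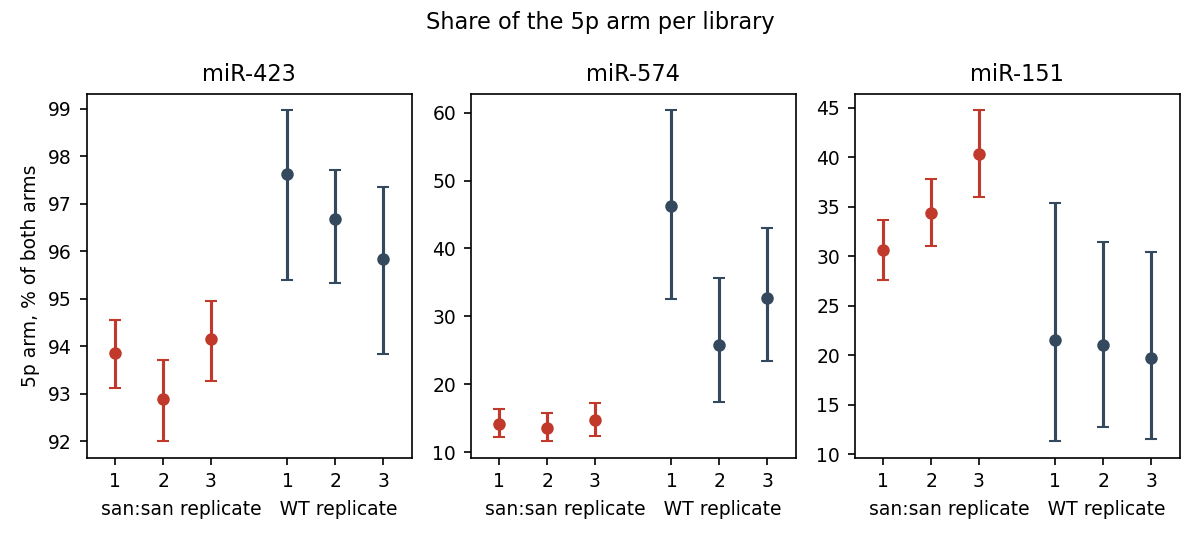
Percentage of each hairpin's counts on the 5p arm per library, with exact 95% binomial intervals (each panel has its own vertical scale, not starting at 0), san:san left of WT. The san:san libraries lie below the WT libraries for miR-423 and miR-574 and above them for miR-151, with wider intervals in the shallower WT libraries.

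As single values, the mean 5p share was 93.6% ± 0.665 in san:san and 96.7% ± 0.897 in WT for miR-423, a difference of -3.08 percentage points. It was 14.2% ± 0.592 in san:san and 34.9% ± 10.4 in WT for miR-574, a difference of -20.7 points. It was 35.1% ± 4.89 in san:san and 20.8% ± 0.936 in WT for miR-151, a difference of 14.3 points (SD, n = 3 each throughout). Each gave p = 0.1 in a two-sided exact permutation test, the smallest that 3 against 3 libraries allows. No overlap of the 5p share between genotypes was found for 60.0% of the 25 hairpins.

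With both arms summed, the miR-574 hairpin made up 0.621%, 0.694% and 0.678% of all counts in san:san, against 0.434%, 0.336% and 0.437% in WT. miR-423 made up 2.42%, 2.25% and 2.47% in san:san, against 2.72%, 3.34% and 2.55% in WT. miR-151 made up 0.489%, 0.495% and 0.392% in san:san, against 0.410%, 0.280% and 0.349% in WT. As shares of unscaled totals, miR-574 was thus above WT in every san:san library, miR-423 was below WT in every one, and miR-151 overlapped. These positions depend on the scale. With total counts the median log2 fold change of all tested miRNAs was -0.29, and with TMM the miR-423 arms were at 0.27 (5p) and 1.22 (3p). How many other hairpins were without overlap on this measure was not computed.

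Among the 25 hairpins the changes of miR-151, miR-423 and miR-574 were moderate. Ranked from the largest gain of the 5p arm, miR-151 stood at 5, miR-423 at 18 and miR-574 at 19. The median of the absolute changes was 1.01 on the log2 scale. Of the 22 other hairpins 12 were called. The largest gains of the 5p arm were in miR-125a (log2 3.99), miR-130b (3.32) and miR-99b (2.79), and the largest losses in miR-23a (-5.96), miR-25 (-3.68) and miR-674 (-2.60). Of the 15 hairpins called, the less frequent arm gained in 7 and the more frequent arm in 8.

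**Figure D4:**
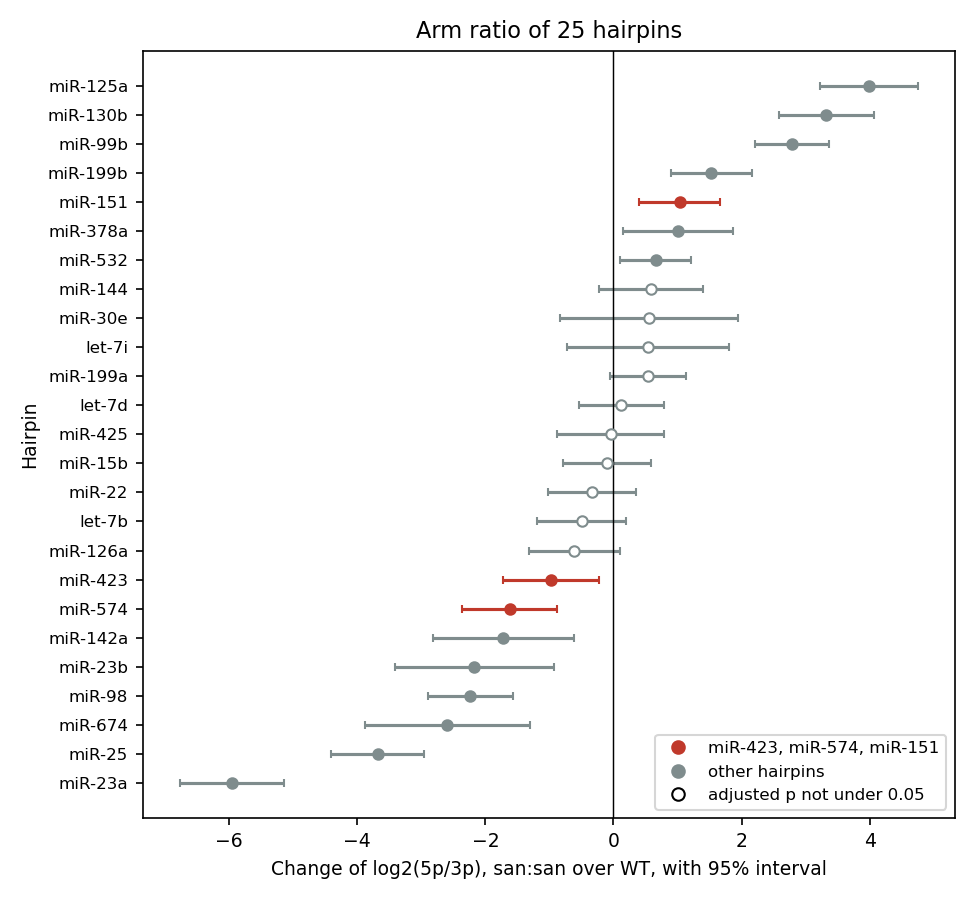
Change of log2(5p/3p) in san:san over WT for 25 hairpins, with 95% intervals from the edgeR fit, ordered by size. Filled points have an adjusted p under 0.05. miR-151 is at 1.03, miR-423 at -0.97 and miR-574 at -1.62, inside the range of -5.96 (miR-23a) to 3.99 (miR-125a).

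miR-151 has relatives in the miR-28 family, to which miR-28a, miR-28c and miR-708 belong. miR-28a-5p had 44, 43 and 18 counts in san:san and 2, 3 and 0 in WT and was higher (log2 2.02 ± 0.70, SE, edgeR adjusted p = 0.0215). miR-28c had nearly the same counts, with 103 over san:san against 105 for miR-28a-5p and 5 over WT for both, so reads of the pair may be shared and the values are uncertain for either name. miR-28a-3p, with 43, 19 and 16 counts in san:san and 10, 13 and 6 in WT, did not pass (log2 -0.96 ± 0.48, adjusted p = 0.0995). miR-708-5p (2 counts over san:san and 10 over WT) and miR-708-3p (2 and 6) were too low to test. Of the 3 tested names 2 were higher and 0 lower, but those 2 hold nearly the same counts, and 34.6% of all tested miRNAs were called higher. The miR-28a hairpin missed the count minimum of the arm test. A looser minimum (5 counts for the arms together in every library, 1 count for each arm in each genotype) gave 80 hairpins. With it the miR-28a 5p arm gained on the 3p arm by log2 2.98 ± 0.78 (SE, edgeR adjusted p = 0.00263). That value was looked up after the counts of the arms were seen.

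For each arm the tested miRNAs with the most similar profile were found from the root mean square difference of log2 CPM over the 6 libraries, after each miRNA's mean was subtracted. This likeness is a description over libraries that share depth and genotype. The nearest to miR-574-3p were miR-487b-3p (0.117) and miR-30c-5p (0.133), against a median of 0.890 over all other tested miRNAs. The nearest to miR-151-5p were miR-342-3p (0.129) and miR-505-3p (0.140), with a median of 0.936. miR-423-3p was nearest to miR-144-5p (0.138) and miR-379-5p (0.189), and miR-423-5p to miR-185-5p (0.133) and miR-92a-3p (0.140). miR-151-3p was nearest to miR-22-3p (0.165) and miR-7a-1-3p (0.189), and miR-574-5p to miR-298-5p (0.156) and miR-181a-5p (0.244). No neighbour was shared between the arms of a hairpin.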

How the data were processed

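Small RNA libraries of macrophage exosomes were analysed for 3 san:san and 3 WT samples, grouped by title. Per the labels' protocols RNA was extracted with Trizol and libraries followed standard Illumina procedures. Per the submitters' processing notes the genome build was mm9. No source used here gives the aligner, the trimming or the miRNA release. The authors deposited whole-number counts per mature miRNA, which were used for all tests. The authors also deposited a scaled signal per sample, named TPM in the header, whose columns sum to 1056890 to 1082573, more than TPM values can. Its values were whole multiples of 1 read within 0.1 reads in 100% of cases, and reads recovered this way matched the counts of all 6 arms.

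The genotype test was edgeR 4.0.16 (R 4.3.3) with filterByExpr at a minimum count of 10, TMM, robust quasi-likelihood dispersions, a genotype term alone, and p-values adjusted by Benjamini-Hochberg over 254 miRNAs. SEs come from the F statistic. On the TMM-scaled CPM used here, 1 count was worth 6.31 to 10.2 CPM in san:san and 27.8 to 69.5 CPM in WT. Without the TMM factors it was worth 5.38 to 7.93 CPM in san:san and 34.6 to 80.3 CPM in WT. Arm ratios were tested in edgeR over 25 hairpins. limma 3.58.1 and DESeq2 1.42.0 served as alternatives, SciPy 1.17.1 gave permutation tests and exact intervals, and RNAfold 2.7.2 the folds. Both tests were also run on simulated data with a dispersion common to all miRNAs and most miRNAs unchanged. Because that setting differs from these data, no conclusion is drawn from it. Members, lists and tests were chosen with earlier results of these data known. Named miRNAs were the 6 arms, the 2 nearest profiles of each, miR-28 relatives, names sharing 12 bases with an arm, and the 3 hairpins with the largest arm change in each direction. Alternatives comprised scalings, filters, merged rows, thinning, the replicate block and leaving out each library.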

Additional observations from a re-analysis of the deposited data

How the results depend on the processing

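miR-574-3p and miR-151-5p kept their direction and call under every alternative run, as did the miR-574 ratio, apart from 1 of 20 thinned draws in which that ratio did not pass. All 3 ratios also passed in limma with either pseudocount. The log2 fold change of miR-574-5p, which passed in no fit but 1 of 20 thinned draws, turned negative with RLE factors (-0.18), total counts (-0.51), TMMwsp (-0.023), DESeq2 (-0.22), a minimum count of 50 (-0.15), thinning to the smallest library (-0.83 in 1 draw, -0.30 as the median of 20 draws) and, among fits without 1 library, which ranged from -0.36 to 0.27, without WT replicate 2 or san:san replicate 3. miR-423-5p turned to -0.32 with total counts and -0.10 as the median of 20 draws. miR-151-3p lost its call with RLE factors (0.48), total counts (0.16), DESeq2 (0.47), a minimum count of 50 (0.51) and thinning (0.23 in 1 draw, 0.44 over 20). Without 1 library it ranged from 0.48 to 0.80, and the call was lost without WT replicate 2 or san:san replicate 1 and held in the other fits.

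Thinned to 12447 counts per library, miR-423-3p was at 0.036 in the planned draw, and at a median of 0.93 over 20 draws, a setting added after the data were seen, of which 14 passed. The miR-423 ratio was at 0.050 in that draw and -1.05 over 20 draws, with 6 past, and ranged from -1.15 to -0.83 without 1 library. The miR-151 ratio was at 1.36 in that draw and 1.00 over 20, with 10 past. In that draw 2 arms and 1 of the ratios passed, and fewer counts remained by construction. At this depth the miR-423 and miR-151 ratios were not called in every draw. Over all miRNAs, higher calls numbered 49 of 254 tested with total counts. Higher and lower calls numbered 51 and 47 of 142 tested with a minimum count of 50, and 37 and 45 of 131 thinned. Over hairpins they numbered 13 and 17 of 80 tested with the looser minimum and 2 and 1 of 14 thinned. With a minimum of 50 they numbered 3 and 6 of 14. Lower calls ranged from 5 to 8 without 1 library, with 20 to 31 hairpins tested. Because the numbers tested differed, these counts of calls are not comparable as they stand. Other causes were not tested.

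With the replicate number as a block, the ratio changes were -0.996 (miR-423), -1.64 (miR-574) and 1.06 (miR-151), and no call on an arm or ratio changed. Deviations of same-numbered libraries correlated at 0.10, -0.08 and 0.26, so the numbers were not taken as pairs, and not every library correlated best with its own number.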
